A study of Mus musculus with 8 samples.

Results

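The genes described here encode the nuclear-encoded subunits of the mitochondrial respiratory chain and ATP synthase. They were chosen by symbol: every gene whose symbol starts with Ndufa, Ndufb, Ndufc, Ndufs, Ndufv, Uqcr, Atp5, Cox4, Cox5, Cox6, Cox7 or Cox8, together with Sdha, Sdhb, Sdhc and Sdhd. The symbol rule takes in 89 of the 19938 genes measured. By symbol, 36 were grouped with complex I, 7 Ndufaf genes with its assembly, 4 with complex II, 8 with complex III, 17 with complex IV and 17 with complex V. This grouping follows the first letters of the symbol alone. It need not match the complex that a product sits in, as for Ndufa4 and Ndufa4l2 under complex I. Cox7c, Ndufb4 and Ndufb4b were read only by probe sets that carry several symbols, and other genes that the rule covers in RefSeq were not analysed here. The symbol rule used no measured value, and the mean over all arrays only chose among probe sets of 1 gene.

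RNA came from 3134 cells, a mouse mammary line obtained by transforming C127 cells, which in turn came from a mammary tumor of the RIII strain. All 8 samples carry stably integrated A-fos, a dominant negative that blocks DNA binding by the transcription factor AP-1, and the tetracycline regulator tTa, which switches A-fos on in the absence of tetracycline (Tet-Off). The 4 groups, of 2 arrays each, were titled 4 hour dexamethasone plus tetracycline, 0 hour control plus tetracycline, 4 hour dexamethasone no tetracycline and 0 hour control no tetracycline. Dexamethasone, a synthetic glucocorticoid hormone, was given at 100 nM after 48 h in charcoal-treated serum, and tetracycline at 1 ug per ml. No group was kept for 4 h without dexamethasone. The dexamethasone or hormone response below is 4 h treated against 0 h untreated, so hormone and elapsed time cannot be told apart. The title and the protocol of each of the 8 samples contradict each other on tetracycline, so the arms are called plus-titled and no-titled here, and which of them made A-fos is not settled. Tetracycline and A-fos change together between the arms, so their parts in an arm difference cannot be told apart. The labels do not say whether the 2 arrays of a group came from separate cultures or whether the line is 1 clone. If the arrays were technical repeats, the p-values below describe only technical spread.

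Complex I takes electrons from NADH and complex II, succinate dehydrogenase, takes them from succinate. Both pass them through coenzyme Q to complex III, which hands them to cytochrome c, and complex IV, cytochrome c oxidase, reduces oxygen with them. Complexes I, III and IV pump protons across the inner mitochondrial membrane, and complex V, ATP synthase, uses the gradient to make ATP. Complex II is encoded wholly in the nucleus, whereas the other complexes join nuclear subunits with subunits made inside the organelle. Their genes are known for promoters that bind nuclear respiratory factor 1, ETS-family proteins and YY1. Several complex IV subunits exist as a widely used form and as forms typical of muscle, lung or testis.

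Promoter windows from RefSeq (mouse build GRCm38.p6, 250 bases before to 50 bases after the annotated start) were matched by gene number for 73 of the 89 genes. Those of all measured genes, used for comparison, were matched by symbol. The windows of 3 genes are printed because 2 of the genes were called between the arms below and the other shows how matches to a known regulator of this gene class can lie at the start. Ndufaf4 differed most between the arms, Atp5g1 holds an AP-1 motif, and Uqcrc1, which encodes a core subunit of complex III, holds a pair of nuclear respiratory factor 1 motifs. Capitals mark the motif matches, and positions count from the annotated start as 0. The Ndufaf4 window lies on the plus strand of chromosome 4 (chr4:24897833-24898132), the Atp5g1 window on the minus strand of chromosome 11 (chr11:96075582-96075881) and the Uqcrc1 window on the plus strand of chromosome 9 (chr9:108936398-108936697).
Ndufaf4: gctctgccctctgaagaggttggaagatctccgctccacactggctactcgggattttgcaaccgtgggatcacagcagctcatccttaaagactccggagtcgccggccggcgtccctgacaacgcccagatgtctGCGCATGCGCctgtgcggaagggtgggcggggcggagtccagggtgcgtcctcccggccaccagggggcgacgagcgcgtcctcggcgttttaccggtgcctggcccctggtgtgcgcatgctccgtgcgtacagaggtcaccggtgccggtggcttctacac
Atp5g1: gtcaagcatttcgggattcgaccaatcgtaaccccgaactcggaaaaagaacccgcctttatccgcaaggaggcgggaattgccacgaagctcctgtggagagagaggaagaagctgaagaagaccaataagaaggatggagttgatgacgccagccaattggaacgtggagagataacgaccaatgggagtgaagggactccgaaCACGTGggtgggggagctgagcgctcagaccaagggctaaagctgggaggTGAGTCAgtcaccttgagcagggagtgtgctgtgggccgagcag
Uqcrc1: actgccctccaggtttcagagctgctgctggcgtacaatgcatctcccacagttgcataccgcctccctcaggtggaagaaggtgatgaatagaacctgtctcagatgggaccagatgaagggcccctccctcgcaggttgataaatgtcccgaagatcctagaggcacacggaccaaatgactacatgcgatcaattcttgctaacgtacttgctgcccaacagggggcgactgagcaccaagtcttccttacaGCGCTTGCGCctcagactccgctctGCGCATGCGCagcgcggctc
In the Ndufaf4 window the nuclear respiratory factor 1 match begins at position -113. In the Atp5g1 window an E-box begins at position -44 and the AP-1 match TGAGTCA at position 6, just inside the transcript. In the Uqcrc1 window both matches lie downstream of the start, at positions 5 and 30.

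Across the 73 windows, the nuclear respiratory factor 1 motif (GCGCA and GCGC with any 1 base between them) was found on either strand in 17 genes (23.3%), against 7.25% of the 15614 windows of measured genes and 4.78% of all 27025 windows. The ETS motif CCGGAAG was also found in 17 (23.3%, against 12.5% and 9.12%), and the YY1 motif AAGATGGCG in 6 (8.22%, against 2.11% and 1.49%). The estrogen-related receptor motif TCAAGGTCA was found in 2 (2.74%, against 0.301% and 0.407%) and the cyclic AMP response element TGACGTCA in 4 (5.48%, against 2.49% and 1.88%). The motifs of the factors manipulated in the study were near their shares elsewhere. The AP-1 motif TGANTCA was found in Ndufa5, Ndufa9, Ndufa13, Uqcrh, Atp5c1 and Atp5g1, or 8.22% of the genes against 6.98% of measured genes and 7.93% of all windows. Of these only Atp5g1 was among the genes that the main fit called between the arms below, and the others were not. A link between the motif and the arm difference was not tested. The hexamer AGAACA, which makes up either arm of the glucocorticoid receptor's palindromic site, was found in 10 (13.7%, against 15.6% and 19%). The E-box CACGTG was found in 6 (8.22%, against 8.38% and 7.24%), and 27 windows held none of the 8 motifs. Matches of different motifs overlapped in 1 window, an ETS match with an AGAACA match. A match describes letters in these windows and not binding.

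Signals are log2 values made by the authors with RMA, and a difference of 1 on this scale is a 2-fold change. Replicates correlated at 0.9932 to 0.9956 over all genes, and 4 to 24 genes per pair differed more than 2-fold. The first component over all genes separated the arms (43.8% of the variance) and the component after it the times (21.6%), while a further one (9.7%) set the 2 untreated plus-titled arrays apart from each other. The probe set of Cox7b2 alone among the 89 lay in the dimmest 25% of all genes, below 4.34. Markers of luminal epithelium (8 measured, mean signal 4.39 to 6.29) and of basal cells (7, 4.67 to 6.90) were all above that limit, as were the mesenchymal markers (8, 5.82 to 12.8) and striated muscle markers (8, 4.87 to 7.25). All 4 brown adipocyte markers and 3 of 6 adipocyte markers were below it. In a bulk sample, fewer cells of a type cannot be told apart from less RNA per cell.

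**Figure D1:**
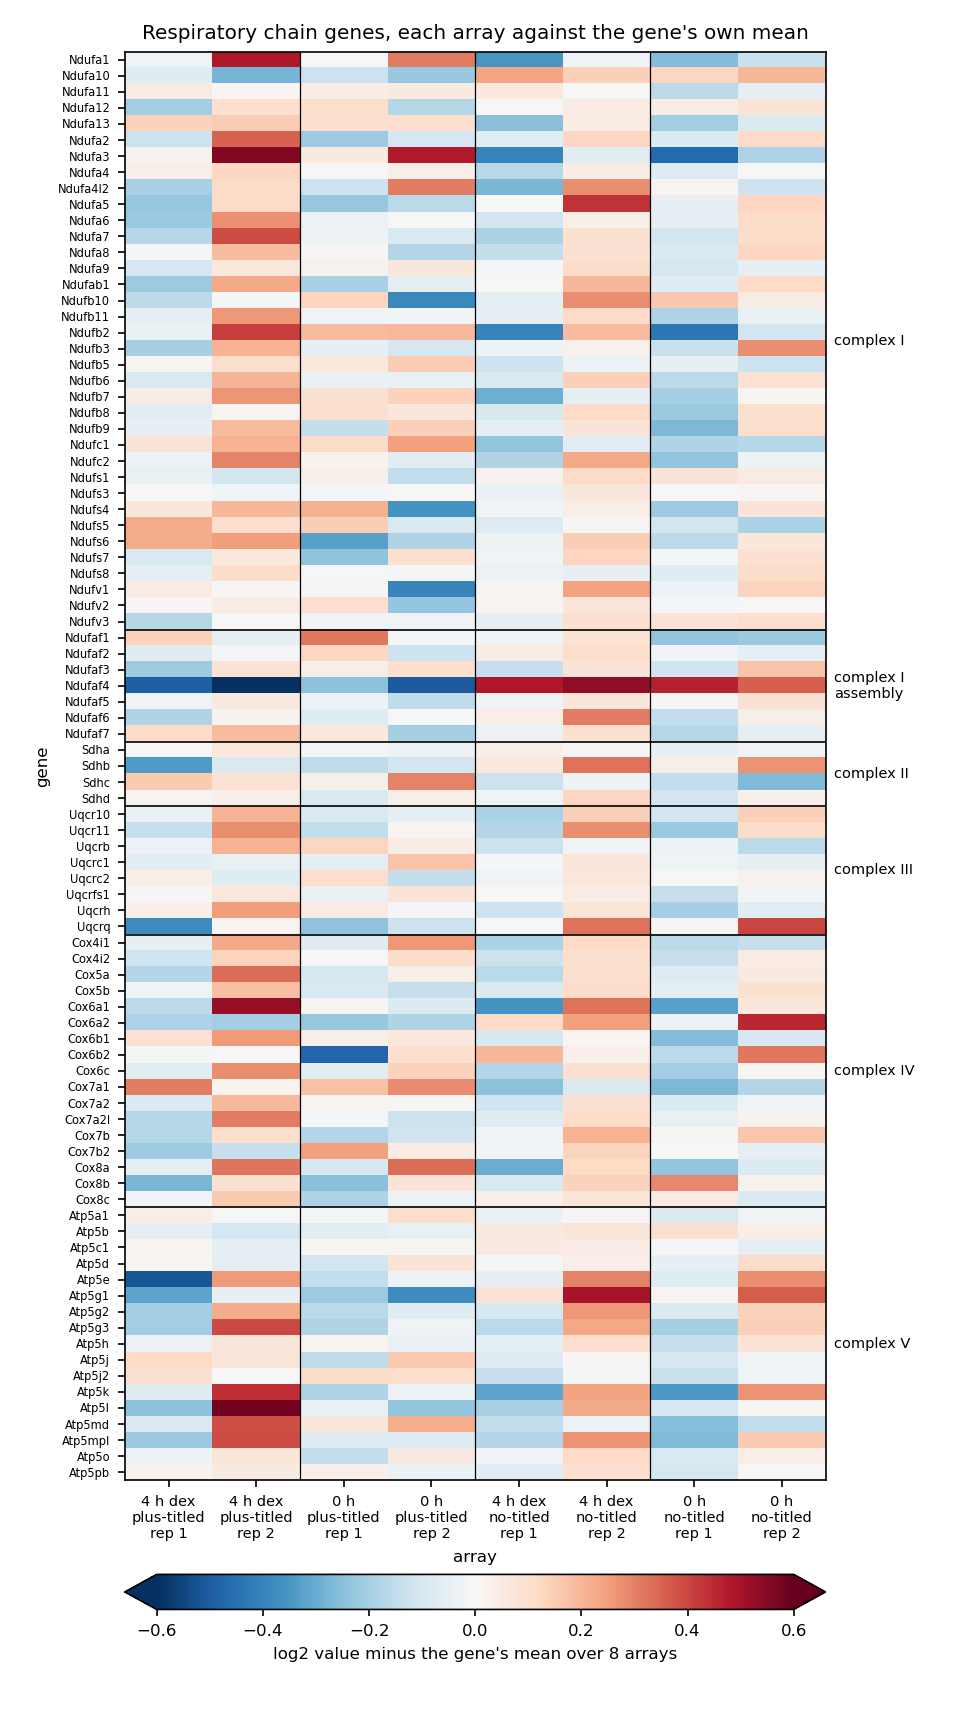
Signal of each of the 89 genes (vertical axis, by complex) on each of the 8 arrays (horizontal axis), as the log2 value minus the gene's mean over the arrays. Ndufaf4 is low on the 4 plus-titled arrays and high on the 4 no-titled ones, and the arrays numbered 2 of the treated groups are red over much of the column.

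The respiratory chain genes shared part of their spread between arrays of a group. Set against each gene's own mean, the median of the 89 genes was -0.05 and 0.11 on the 2 treated plus-titled arrays, -0.02 and -0.01 on the untreated plus-titled ones, -0.06 and 0.10 on the treated no-titled ones, and -0.10 and 0.04 on the untreated no-titled ones. Over all genes that median stayed between -0.02 and 0.01. In 38 of the 89 genes (42.7%) the array numbered 2 was above the array numbered 1 in all 4 groups, which held for 8.94% of all genes, and the opposite held for 1 of them (1.12%, against 9.62%). Complex I had 17 such genes of 36, complex IV 7 of 17 and complex V 6 of 17. The SD of the median between arrays of a group was 0.09, larger than the median of any comparison below.

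Dexamethasone in the plus-titled arm (4 h against 0 h) called none of the 89 genes. Limma called 1.1% of all genes at an adjusted p under 0.05, and 2 of the 89 had an unadjusted p under 0.05 (2.25%, against 9.98% of all genes). The differences ran from -0.32 to 0.49, with 57 genes above 0 and 32 below and a median of 0.05, against -0.01 over all genes. When treated plus-titled replicate 2 was left out that median was -0.03, and when replicate 1 was left out it was 0.14, the lowest and highest of the 8 fits that each lacked 1 array. The 95% interval lay within a 1.5-fold change in either direction for 80 of the 89 genes (87.3% of all genes) and within 2-fold for all 89 (99% of all genes).

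The gene with the smallest p was Ndufs6, which encodes a zinc-binding accessory subunit of complex I. Its signal was 7.05 and 7.08 on the treated plus-titled arrays, against 6.501 and 6.65 on the untreated plus-titled ones. The difference was 0.49 ± 0.12 (SE, limma adjusted p = 0.122, 95% interval 0.22 to 0.76), and the gene was not called. In the no-titled arm its signal was 6.80 and 6.98 on treated arrays, against 6.67 and 6.90 on untreated ones. Cox7b2, the testis form of a complex IV subunit and the dim gene named above, had 2.93 and 3.01 on treated plus-titled arrays, against 3.39 and 3.19 on untreated ones (difference -0.32 ± 0.12, adjusted p = 0.345).

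The other genes nearest to the threshold in each complex were further from it. In complex I the next was Ndufa2 (0.27, adjusted p = 0.641), and among the assembly factors Ndufaf7, a methyltransferase, had 0.22 (adjusted p = 0.619) and Ndufaf4 had -0.17 (0.709). In complex II Sdhb had -0.08 (0.909) and Sdha 0.06 (0.916). In complex III Uqcr10 had 0.16 (0.795) and the hinge subunit Uqcrh 0.12 (0.816). In complex IV Cox5b followed Cox7b2 with 0.20 (0.667). In complex V Atp5l and Atp5k, subunits at the contact between ATP synthase dimers, had 0.31 (0.739) and 0.30 (0.756). Their intervals were among the widest, at -0.20 to 0.81 and -0.22 to 0.82.

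In the no-titled arm dexamethasone again called none of the 89 genes, against 1.43% of all genes called by limma (1.03% higher and 0.401% lower), and none of them reached an unadjusted p under 0.05 (9.1% of all genes did). The differences ran from -0.13 to 0.26. Of the 89 genes 69 were above 0 and 20 below, with a median of 0.05 against 0.01 over all genes. The 95% interval was within 1.5-fold for 87 of the 89 genes (88.1% of all genes) and within 2-fold for all 89 (98.8%), the exceptions at 1.5-fold being Ndufb2 and Cox6a1. The lean towards positive values did not keep its size when arrays were left out. Without replicate 2 of the treated no-titled group the median was -0.05, and over the 8 fits that each lacked 1 array it lay between -0.05 and 0.13.

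The assembly factors Ndufaf1 and Ndufaf6 had the smallest p in this arm. Ndufaf1 had 7.27 and 7.37 on treated no-titled arrays, against 7.05 and 7.06 on untreated ones (0.26 ± 0.13, adjusted p = 0.619). The gene was not called. Ndufaf6 had 6.33 and 6.59 on treated no-titled arrays, against 6.14 and 6.32 on untreated ones (0.23 ± 0.13, adjusted p = 0.704). In complex I Ndufa11 had 0.14 (adjusted p = 0.831) and Ndufa9 0.13 (0.869). In complex II the membrane anchors Sdhc and Sdhd had 0.13 (0.896) and 0.09 (0.924), and in complex III the Rieske iron-sulfur protein gene Uqcrfs1 had 0.10 (0.914) and Uqcrh 0.11 (0.924). In complex IV Cox6b1 had 0.14 (0.869) and Cox8b -0.13 (0.929), and in complex V the central-stalk subunit gene Atp5c1 had 0.09 (0.924) and Atp5md 0.11 (0.941).

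The hormone responses of both arms were then set beside each other. Over the 89 genes the 2 responses, which share no arrays, had Pearson's r of 0.02 and Spearman's rho of 0.06, against 0.50 and 0.25 over all genes. In the same direction in both arms, 0 of the 89 exceeded 0.2, against 1308 of all 19938 genes. The sign was the same in 51 of 89 (57.3%, against 57.1% of all genes). Genes are not independent replicates, so these are descriptions. When the response was averaged over both arms, a contrast added after the data were seen, limma called 0 of the 89 against 2.96% of all genes (1.73% higher and 1.23% lower). A single gene, Ndufs6, had an unadjusted p under 0.05 there (0.30 ± 0.09, adjusted p = 0.125), against 12.4% of all genes, and the 95% interval was within 1.5-fold for all 89 genes (96.4% of all genes).

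**Figure D2:**
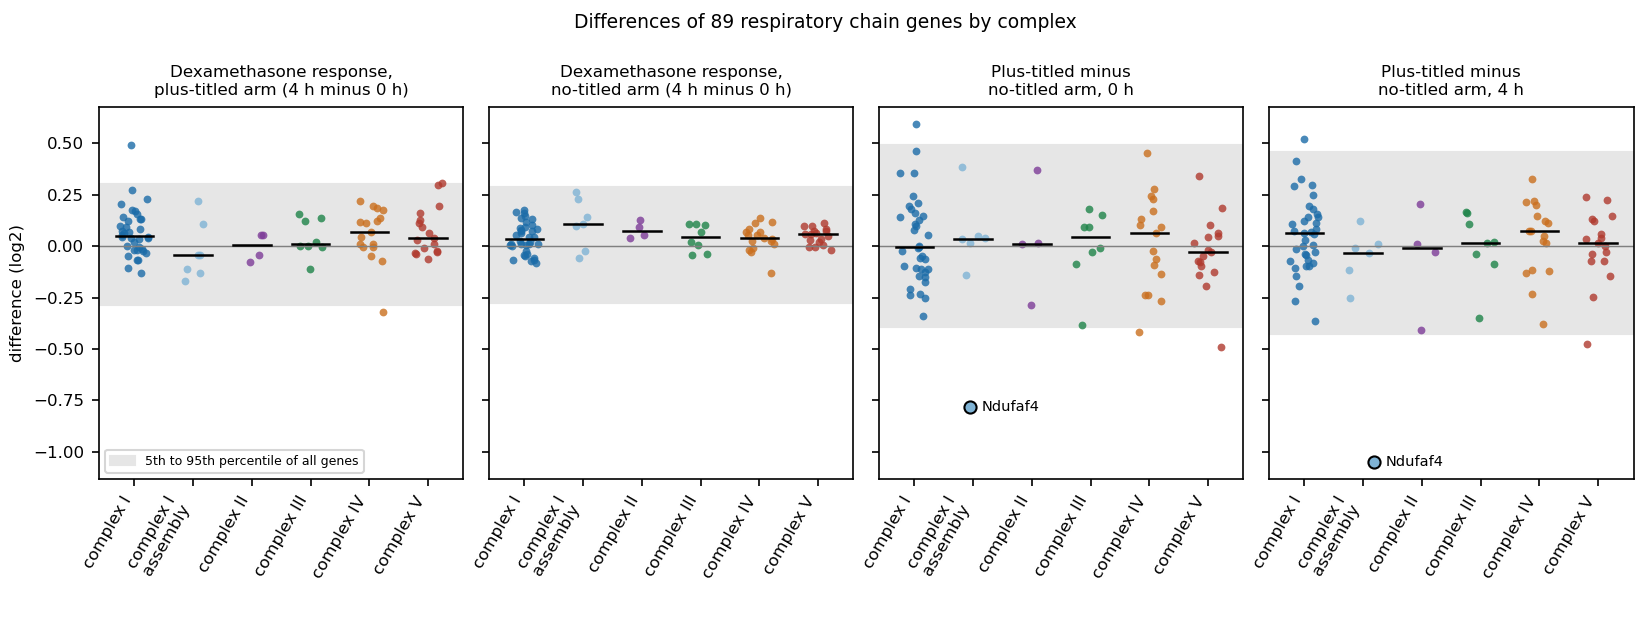
Difference of each of the 89 genes in the 4 comparisons (vertical axis, log2), by complex (horizontal axis), with a bar at each complex's median and grey from the 5th to the 95th percentile of all genes. Both hormone responses sit close to 0, and the outlined Ndufaf4, at -0.78 at 0 h and -1.05 at 4 h, is the gene that passed the test in the main fit.

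Between the arms, the main fit (a mean per group, no replicate term) called 1 of the 89 genes at each time. At both times it was Ndufaf4. Its product is needed for an early step of complex I assembly, and it is known also as a phosphoprotein of hormone-responsive tumor cells. Its signal was 6.84 and 6.73 on the treated plus-titled arrays and 7.09 and 6.83 on the untreated plus-titled ones, against 7.81 and 7.86 on the treated no-titled arrays and 7.79 and 7.69 on the untreated no-titled ones. All 4 plus-titled arrays were below all 4 no-titled ones. At 0 h it averaged 6.96 ± 0.18 in the plus-titled arm and 7.74 ± 0.07 in the no-titled arm (SD, n = 2 each), a difference of -0.78 ± 0.12 (SE, 95% interval -1.05 to -0.52, limma adjusted p = 0.00306). At 4 h it averaged 6.79 ± 0.07 and 7.84 ± 0.04 in the plus-titled and no-titled arms, a difference of -1.05 ± 0.12 (95% interval -1.31 to -0.78, adjusted p = 0.000637). The plus-titled level was thus 1.72-fold lower at 0 h and 2.07-fold lower at 4 h. The call held in each of 15 alternative fits at 0 h (-0.91 to -0.65, largest adjusted p = 0.0381) and at 4 h (-1.10 to -0.996, largest adjusted p = 0.00957). The 1 call among 89 genes (1.12%) stood against 9.38% of all genes called at 0 h, or 6.2% higher and 3.18% lower, and against 9.61% at 4 h, or 5.29% higher and 4.32% lower. Over the 89 genes, differences between arrays 2 and 1 correlated between groups at 0.126 to 0.679. With the replicate number as a block, limma also called Ndufa3 at 0 h (0.59, adjusted p = 0.0116) and 4 h (0.52, 0.0173), and Sdhb at 4 h (-0.41, 0.043). That fit called 10.2% of all genes at 0 h and 10.6% at 4 h. With trend and robust variance 4 of the 89 genes were higher and 3 lower at 0 h, and 4 lower at 4 h. The share of all genes called with that setting was 13% at 0 h and 13.1% at 4 h.

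Unadjusted p-values under 0.05 were reached by 11 of the 89 genes at 0 h (12.4%, against 22.8% of all genes) and by 10 at 4 h (11.2%, against 22.4%). At 0 h the differences ran from -0.78 to 0.59, with 44 genes above 0 and 45 below and a median of 0.00, against -0.02 over all genes. At 4 h they ran from -1.05 to 0.52, with 51 above 0 and 38 below and a median of 0.02, against -0.01. Over the 8 fits without 1 array the median lay between -0.09 and 0.09 at 0 h, without replicates 1 and 2 of the untreated no-titled group, and between -0.07 and 0.13 at 4 h, without replicates 2 and 1 of the treated plus-titled group. The 95% interval was within 1.5-fold for 66 genes at 0 h (75.7% of all genes) and for 72 at 4 h (76.4%). It was within 2-fold for 87 and 88 genes (97% and 96.7% of all genes), the exceptions being Ndufaf4 at both times and Ndufa3 at 0 h.

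Other genes missed the threshold at the single times in the main fit. At 0 h Cox7a1, the muscle form of a complex IV subunit, came closest with 0.45 ± 0.13 (adjusted p = 0.05003). Next came Ndufc1 at 0.36 (0.0840), Sdhc at 0.37 (0.0876), Ndufa10 at -0.34 (0.0946), Ndufa3 at 0.59 (0.0978), Ndufaf1 at 0.38 (0.101), Atp5g1 at -0.49 (0.102) and Cox6a2 at -0.42 (0.115). The nearest in complex III were Uqcrq at -0.38 (0.221) and Uqcrb at 0.18 (0.424), and in complex II Sdhb had -0.29 (0.252). In complex V Atp5md had 0.34 (0.207). At 4 h Ndufa10 came closest of the genes not called, at -0.36 (0.0770), followed by Sdhb at -0.41 (0.0991) and Atp5g1 at -0.47 (0.115). Ndufa3 had 0.52 (0.150), Ndufc1 0.30 (0.153), Cox7a1 0.33 (0.153) and Cox6a2 -0.38 (0.157) at that time. Sdhc had 0.20 (0.378), Ndufaf6 -0.25 (0.293), Uqcrq -0.35 (0.279), Uqcrh 0.17 (0.495) and Atp5md 0.24 (0.409).

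The arm differences at 0 h and at 4 h, which rest on different arrays, resembled each other gene by gene. Over the 89 genes Pearson's r was 0.80 and Spearman's rho 0.66, and without Ndufaf4 they were 0.76 and 0.65. Over all genes r was 0.72 and rho 0.57. The sign was the same for 58 of the 89 genes (65.2%, against 68.7% of all genes). In the same direction at both times, 18 of the 89 genes exceeded 0.2, against 4147 of all 19938 genes, a similar share. These are correlations across genes of arrays normalized together, and carry no test.

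**Figure D3:**
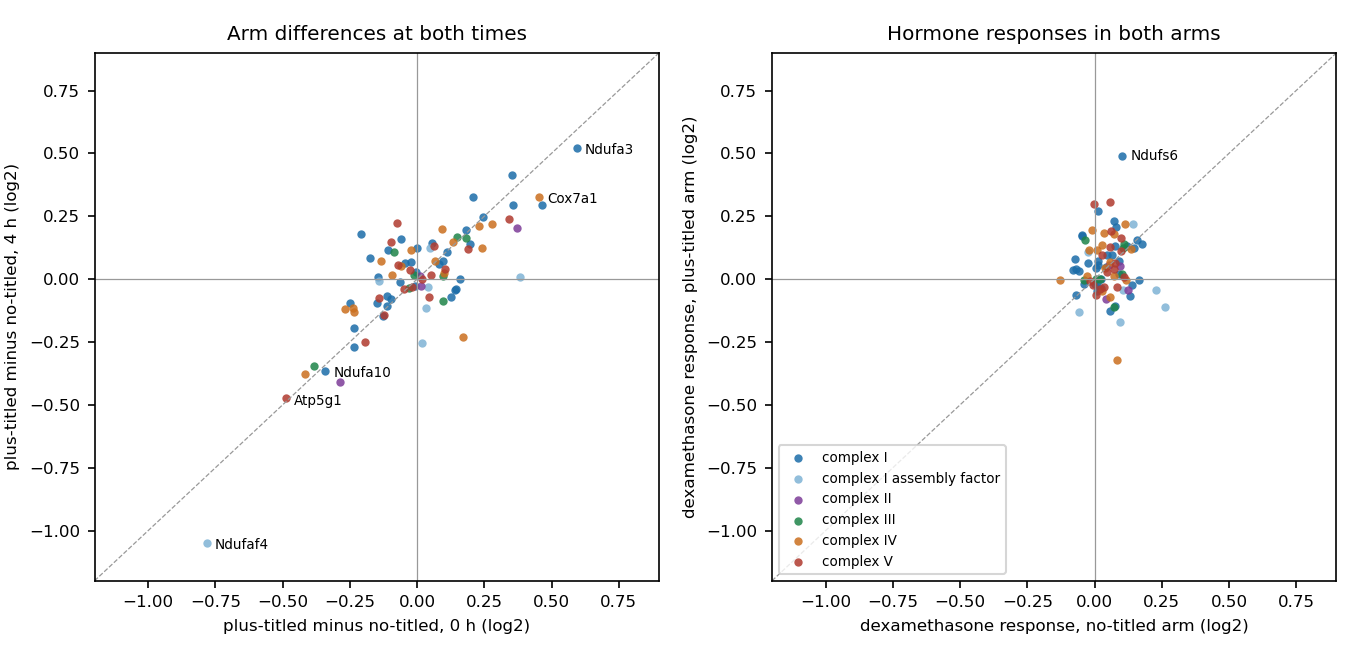
Each point is 1 of the 89 genes, coloured by complex, with the arm difference at 0 h (horizontal) and at 4 h (vertical) on the left, and the hormone response of the plus-titled arm (vertical) and of the no-titled arm (horizontal) on the right (log2, dashed line at equality). The arm differences follow the line (r = 0.80) and the hormone responses gather around 0 (r = 0.02).

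Averaging the arm difference over both times, a contrast added after the data were seen, called 9 of the 89 genes (10.1%, against 18.8% of all genes). Of these 4 were higher in the plus-titled arm (11% of all genes) and 5 were lower (7.74%). An unadjusted p under 0.05 was reached by 18 (20.2%, against 29.6%). The 95% interval was within 1.5-fold for 81 genes (87.7% of all genes) and within 2-fold for 88 (98.3%). In complex I Ndufa3 and Ndufc1 were higher and Ndufa10 lower, Ndufaf4 was lower among the assembly factors, and in complex II Sdhc was higher and Sdhb lower. In complex IV Cox7a1 was higher and Cox6a2 lower, and in complex V Atp5g1 was lower. No gene of complex III was called. The values of these genes on the 8 arrays follow. For each of them all 4 plus-titled arrays lay on 1 side of all 4 no-titled arrays. That adds no support, because the same arrays picked these genes.

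Ndufa10, an accessory subunit of complex I with a nucleoside kinase fold, had 9.45 and 9.25 on treated and 9.40 and 9.30 on untreated plus-titled arrays, against 9.76 and 9.67 on treated and 9.66 and 9.72 on untreated no-titled arrays. Its averaged difference was -0.35 ± 0.08 (SE, limma adjusted p = 0.0111), and it was called in all 14 alternative fits, as Ndufaf4 was (-0.92 ± 0.08, adjusted p = 6.07e-05). Ndufa3, a small membrane subunit of complex I, had 8.59 and 9.12 on treated and 8.63 and 9.05 on untreated plus-titled arrays, against 8.17 and 8.50 on treated and 8.10 and 8.38 on untreated no-titled arrays. In each of the 4 groups its array numbered 2 was the higher one. The difference was 0.56 ± 0.14 (adjusted p = 0.0189). Ndufc1, another small membrane subunit, had 8.996 and 9.13 on treated and 9.03 and 9.16 on untreated plus-titled arrays, against 8.68 and 8.85 on treated and 8.74 and 8.75 on untreated no-titled arrays. The difference was 0.33 ± 0.08 (adjusted p = 0.0170). A further probe set of Ndufc1 gave 0.30 and was not called (adjusted p = 0.1 over the probe sets tested).

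Complex II held a called gene on each side. Sdhb, which encodes the iron-sulfur subunit, had 7.82 and 8.07 on treated and 8.00 and 8.04 on untreated plus-titled arrays, against 8.22 and 8.48 on treated and 8.19 and 8.43 on untreated no-titled arrays (difference -0.35 ± 0.10, adjusted p = 0.0299). Sdhc, a membrane anchor that helps form the coenzyme Q site, had 9.78 and 9.71 on treated and 9.65 and 9.92 on untreated plus-titled arrays, against 9.49 and 9.59 on treated and 9.48 and 9.36 on untreated no-titled arrays (0.29 ± 0.09, adjusted p = 0.0399). The flavoprotein gene Sdha had differences of 0.01 at 0 h and 0.01 at 4 h, with 95% intervals of -0.21 to 0.24 at both times. The other anchor gene, Sdhd, had 0.01 (-0.24 to 0.27) at 0 h and -0.03 (-0.28 to 0.22) at 4 h.

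In complex IV Cox7a1 had 5.43 and 5.14 on treated and 5.30 and 5.41 on untreated plus-titled arrays, against 4.88 and 5.04 on treated and 4.85 and 4.95 on untreated no-titled arrays (0.39 ± 0.09, adjusted p = 0.0114). Cox6a2, the muscle form of another subunit, had 6.22 and 6.20 on treated and 6.18 and 6.22 on untreated plus-titled arrays, against 6.53 and 6.65 on treated and 6.38 and 6.86 on untreated no-titled arrays (-0.40 ± 0.10, adjusted p = 0.0223). The 2 muscle-type genes thus lay on opposite sides. The signal of Cox7a1 was low, with a mean of 5.12 against array medians of 5.59 to 5.69 over all genes. In complex V Atp5g1, 1 of 3 genes that encode the same mature subunit of the membrane ring, had 8.13 and 8.40 on treated and 8.23 and 8.07 on untreated plus-titled arrays, against 8.54 and 8.94 on treated and 8.47 and 8.81 on untreated no-titled arrays (-0.48 ± 0.12, adjusted p = 0.0160). Its other probe set gave -0.44 and was also called (adjusted p = 0.0248 over the probe sets tested). The other 9 genes with an unadjusted p under 0.05 were not called. They were Ndufa1 (0.38, adjusted p = 0.0598), Uqcrq (-0.37, 0.0646), Ndufb7 (0.27, 0.0716), Ndufa13 (0.25, 0.0746), Atp5md (0.29, 0.0883), Cox6b1 (0.22, 0.0897), Ndufb2 (0.38, 0.0976), Ndufs5 (0.19, 0.162) and Ndufb5 (0.17, 0.166). The other 2 probe sets of Atp5md gave 0.33 and 0.36 and were called (adjusted p = 0.0442 and 0.0456 over the probe sets tested).

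**Figure D4:**
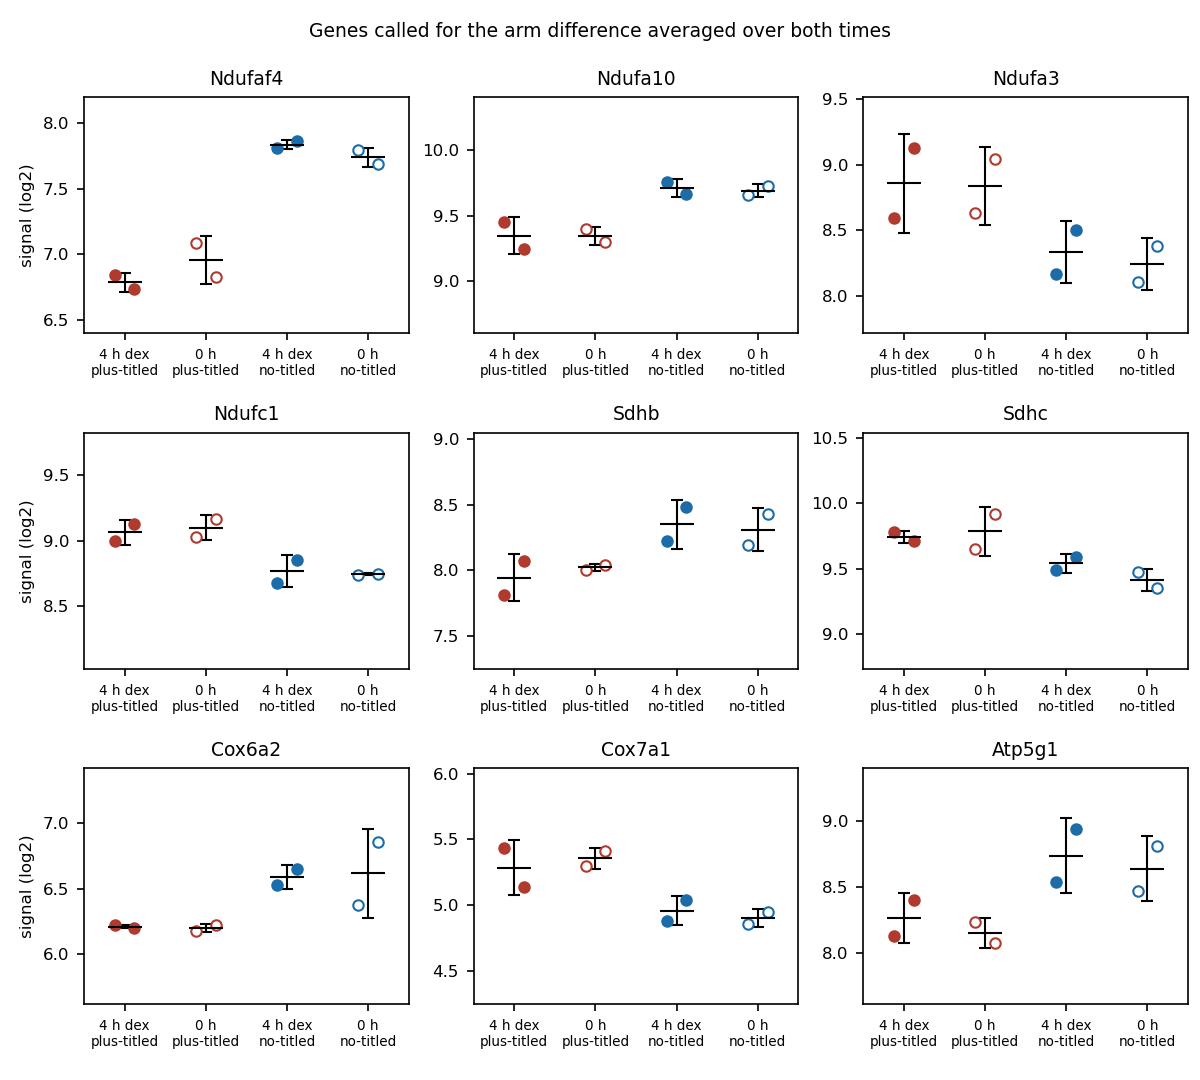
Signal (vertical axis, log2) of the 9 genes called for the averaged arm difference, in the 4 groups (horizontal axis), with the 2 arrays as circles and the mean and SD as bars. Ndufaf4 is furthest apart between the arms, and the arrays of Ndufa3, Sdhb and Atp5g1 spread widely within groups.

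Of these 9 calls, 7 depended on single arrays. That of Cox7a1 was lost without replicate 1 of the treated no-titled group (0.35, adjusted p = 0.0505). That of Atp5g1 was lost without the treated plus-titled replicate 1, replicate 2 of the untreated plus-titled group or replicate 2 of either no-titled group (-0.44 to -0.38, adjusted p 0.0590 to 0.0667). Ndufa3 was lost without replicate 2 of either plus-titled group or replicate 1 of either no-titled group (0.42 to 0.49, 0.0697 to 0.0742). Ndufc1 was lost without the treated plus-titled replicate 2, replicate 1 of the treated no-titled group or either untreated no-titled array (0.28 to 0.33, 0.0545 to 0.0768). Sdhb was lost without the treated plus-titled replicate 1, either untreated plus-titled array or replicate 2 of either no-titled group (-0.36 to -0.28, 0.0594 to 0.12). Cox6a2 was lost without any 1 plus-titled array or replicate 2 of either no-titled group (-0.41 to -0.28, 0.0506 to 0.0766). Sdhc was lost without any 1 array other than replicate 1 of the untreated plus-titled group (0.22 to 0.32, 0.0693 to 0.138) and after cyclic loess normalization (0.28, 0.0501).

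Markers of other cell types also differed between the arms. Of 7 basal or myoepithelial markers, 1 was called higher at each time, Acta2 (1.66 at 0 h and 1.45 at 4 h), and 1 lower, Krt14 (-1.39 and -1.41), against 6.2% of all genes higher and 3.18% lower at 0 h and 5.29% and 4.32% at 4 h. The Acta2 difference ranged over the 8 fits that left out 1 array from 1.07 to 2.26 at 0 h and from 0.83 to 2.07 at 4 h, and its call was lost in 3 fits at 0 h and 5 at 4 h, while that of Krt14 was lost in 0. The basal markers' summed signal (log2) was 8.51 to 9.0 on treated and 8.66 to 9.09 on untreated plus-titled arrays, against 8.53 to 8.62 on treated and 8.54 to 8.76 on untreated no-titled arrays. Of 8 mesenchymal markers, Pdgfra was called higher at both times (0.88 and 0.59), Pdgfrb higher at 0 h (0.52) and Col1a2 lower at both (-0.70 and -0.65). The calls of Pdgfra at 4 h and of Pdgfrb at 0 h were each lost in 4 of the 8 fits. Pdgfrb was also lower with dexamethasone in the plus-titled arm (-0.75, adjusted p = 0.0191, against 0.281% of all genes lower), a call lost without either untreated plus-titled array or replicate 2 of the treated ones (largest adjusted p = 0.201). The mesenchymal markers' summed signal was 13.6 to 13.7 on plus-titled and 13.9 to 14.01 on no-titled arrays. Of 6 adipocyte markers 1, Fabp4, was called, lower in the plus-titled arm at 4 h (-1.35) and higher with dexamethasone in the no-titled arm (1.68, against 1.03% of all genes higher). In the plus-titled arm its response was 0.54 and not called. Averaged over both arms it was called higher (1.11, limma adjusted p = 0.000234, against 1.73% of all genes higher). Neither Pdgfrb nor Fabp4 was called in the difference of responses. The adipocyte markers' summed signal was 7.14 to 7.24 on treated and 7.06 to 7.09 on untreated plus-titled arrays, against 7.53 to 7.68 on treated and 7.16 to 7.34 on untreated no-titled arrays. In the arm difference averaged over both times, 3 of 7 basal markers (42.9%, 1 higher and 2 lower) were called, against 18.8% of all genes. So were 5 of 8 mesenchymal markers (62.5%, 2 higher and 3 lower). Called only there were Vim (-0.30, limma adjusted p = 0.0146), Fn1 (-0.34, 0.00826) and Krt17 (-0.31, 0.0326), all lower. None of the 8 striated muscle, 4 brown adipocyte, 8 luminal, 5 leukocyte or 4 endothelial markers was called in any comparison. Whether these marker differences bear on the arm difference of the respiratory chain genes was not tested.

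The forms of subunits that are typical of particular tissues were set beside their widely used partners, with differences at 0 h and then at 4 h between the arms. Cox4i2, the lung form, had 0.10 and 0.03, and its partner Cox4i1 had 0.24 and 0.12. Cox6a1, partner of Cox6a2, had 0.09 and 0.20 with wide intervals (-0.46 to 0.64 at 0 h). The testis form Cox6b2 had -0.27 and -0.12, and Cox6b1 had 0.23 and 0.21. Cox7a2, the partner of Cox7a1, had 0.07 and 0.07. Cox8b, a muscle form that mice use, had -0.24 and -0.11, and Cox8a had 0.28 and 0.22. Ndufa4l2, known for induction in low oxygen, had 0.14 and -0.04, and Ndufa4 had 0.06 and 0.14. Cox7a2l, which links complexes III and IV into supercomplexes, had -0.06 and 0.05. None of these passed the test at either time (adjusted p 0.275 to 0.943). In the hormone responses the same 11 genes ranged from -0.13 to 0.22 in the plus-titled arm and from -0.13 to 0.14 in the no-titled arm.

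The difference of the hormone responses, plus-titled minus no-titled, called none of the 89 genes, and limma called 1 of all 19938 genes (0.00502%). An unadjusted p under 0.05 was reached by Cox7b2 (-0.40 ± 0.16, adjusted p = 0.954) and Ndufs6 (0.39 ± 0.17, 0.967), or 2.25% of the genes against 5.11% of all genes. The median of the 89 genes was 0.00, and the differences ran from -0.40 to 0.39. The interval was within 1.5-fold for 56 genes (61.4% of all genes) and within 2-fold for 88 (97.1%). Ndufaf4, which differed between the arms at both times, had a difference of responses of -0.27 with an interval of -0.64 to 0.11 (adjusted p = 0.997). Ndufaf1 had -0.37 (0.985), and Ndufa9, Sdhb, Sdhc, Uqcrc1, Uqcr10, Cox5b, Atp5c1 and Atp5k had values between -0.20 and 0.30 (each 0.997).

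Probe sets of the same gene could be compared for 17 of the 89 genes. The range across a gene's probe sets had a median of 0.04 at 0 h and 0.03 at 4 h for the arm difference and of 0.04 and 0.03 for the plus-titled and no-titled hormone responses. Cox7a2l had the widest range in the plus-titled hormone response, where the set used gave 0.14 and the other 0.41 (adjusted p = 0.52), and at both times of the arm difference, with -0.06 and -0.23 at 0 h and 0.05 and 0.20 at 4 h. In the no-titled response the widest range, 0.14, was that of Ndufa11. Probe sets of 3 of the 17 genes had opposite signs for the arm difference at 0 h and at 4 h, and no probe set of the 17 genes was called in these 4 comparisons. For the averaged arm difference 5 probe sets were called, 2 each of Atp5g1 and Atp5md and 1 of Ndufc1.

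Genes that act around the respiratory chain were described from lists outside the symbol rule. None of their members was called in either hormone response or in the difference of responses. The arm difference averaged over both times called 18.8% of all genes. There it called 31.4% of 35 assembly factors outside the Ndufaf symbols (6 higher and 5 lower) and 35.3% of 17 tricarboxylic acid cycle genes. The shares were 27.8% of 18 biogenesis genes, 33.3% of 6 electron carriers, 11.1% of 9 carriers and uncouplers and 10% of 10 coenzyme Q genes. The counts below concern the arm difference at the single times. It called 9.38% of all genes at 0 h (6.2% higher and 3.18% lower) and 9.61% at 4 h (5.29% and 4.32%). Of 35 measured assembly factors outside the Ndufaf symbols, 2 were higher, 1 lower and 32 not called at 0 h (median 0.01), and 0 higher, 2 lower and 33 not called at 4 h (median -0.07). The calls made up 8.57% of the list at 0 h and 5.71% at 4 h, near or below the share of all genes at those times. Cox18, which inserts a complex IV subunit into the membrane, had 7.49 and 7.45 on treated and 7.62 and 7.72 on untreated plus-titled arrays, against 7.99 and 8.24 on treated and 8.22 and 8.33 on untreated no-titled arrays. It was lower in the plus-titled arm at both times, with differences of -0.60 (adjusted p = 0.0112) at 0 h and -0.65 (0.00712) at 4 h. Cox15, needed for the haem of complex IV, was higher at 0 h (0.46, 0.0290), as was Cox19, a copper-related factor (0.66, 0.0400). Lrpprc, which stabilises mitochondrial mRNAs, was lower at 4 h (-0.54, 0.0164).

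Among 17 measured genes of the tricarboxylic acid cycle, 2 were higher and 2 lower at 0 h (median -0.04) and 1 higher and 0 lower at 4 h (median -0.09), or 23.5% and 5.88% of the list against 9.38% and 9.61% of all genes. Pcx, which encodes pyruvate carboxylase, had 7.98 and 7.98 on treated and 7.92 and 8.00 on untreated plus-titled arrays, against 7.16 and 7.33 on treated and 6.91 and 7.23 on untreated no-titled arrays. It was higher at 0 h by 0.89 (adjusted p = 0.00234) and at 4 h by 0.74 (0.00564). Ogdh was higher at 0 h (0.52, 0.0201), and Idh2 (-0.46, 0.0196) and Fh1 (-0.43, 0.0335) were lower. Of 18 genes of mitochondrial biogenesis and transcription, 0 were called at 0 h (9.38% of all genes were), where Ssbp1 had the smallest p (-0.39, adjusted p = 0.0667). At 4 h 1 was higher and 3 were lower (median -0.05), or 22.2% against 9.61% of all genes. The coactivator gene Ppargc1a was higher (0.54, 0.0171), while its relative Pprc1 (-0.60, 0.0163), Nrf1, which encodes nuclear respiratory factor 1 (-0.47, 0.0428), and Tfb1m (-0.39, 0.0446) were lower. Of 9 carriers and uncouplers 1 was called (11.1%, against 9.38% and 9.61% of all genes at 0 h and 4 h), the ADP/ATP carrier gene Slc25a5, lower at 0 h (-0.47, 0.0385) and at 4 h (-0.45, 0.0420).

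Of 6 genes of complex III and electron carriers outside the rule, Etfdh, which feeds electrons from fatty acid oxidation to coenzyme Q, was higher at 0 h (0.42, adjusted p = 0.0399), and 0 were called at 4 h, where the cytochrome c gene Cycs had the smallest p (-0.46, 0.117). None of 10 coenzyme Q synthesis genes was called at either time, with the smallest p for Coq8a at 0 h (0.39, 0.0770) and for Pdss2 at 4 h (-0.41, 0.0513). In the hormone responses the smallest p of each list belonged in the plus-titled arm to Ucp3 (0.31, adjusted p = 0.471), Cox15 (-0.25, 0.485), Pdss2 (-0.26, 0.498), Nrf1 (-0.27, 0.532), Cs (-0.20, 0.612) and Etfdh (0.14, 0.753). In the no-titled arm it belonged to Tfb1m (0.33, 0.277), Etfdh (0.30, 0.386), Uqcc3 (0.30, 0.497), Pdss2 (0.26, 0.555), Pcx (0.18, 0.823) and Slc25a31 (-0.15, 0.828). Of the 17 calls between the arms in these pathway lists, 16 were lost in limma when 1 or more of the 8 arrays was left out in turn, and the call of Pcx at 0 h was kept in all 8 fits (largest adjusted p = 0.0288). The call of Pcx at 4 h was lost without the first treated no-titled array (0.0606), those of Cox18 and Ppargc1a at 4 h without the second treated array of either arm (largest 0.069 and 0.139), and that of Etfdh in all 8 fits (largest 0.228). The 13 genes encoded by mitochondrial DNA had no single-symbol probe set and were not analysed here.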

How the data were processed

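The authors deposited log2 expression values of 28888 probe sets on 8 arrays. The tools named per the submitters' processing notes are RMA and Affymetrix Expression Console, each without a version. RMA subtracts background, gives all arrays the same distribution of values and summarises the probes of a set, so a change shared by most genes is hidden and folds of dim genes are compressed. Samples were grouped by title. The number of arrays limits the precision.

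The array's annotation gave 1 symbol to 21789 probe sets, several to 1621 and none here to 5478, and RefSeq gene numbers updated old symbols. The probe set with the highest mean stood for its gene, with no filter on signal. A limma model (version 3.58.1, R 4.3.3) held a mean per group over all 8 arrays, with 4 residual and 6.64 prior degrees of freedom and a prior SD of 0.127. P-values are 2-sided, with Benjamini-Hochberg adjustment over 19938 genes and calls at an adjusted p under 0.05, and all adjusted p-values here are limma's. As alternatives the variance was modelled with a trend and robustly, the model was restricted to the arrays compared or given the replicate number as a block, dim genes were dropped, values were median-centred or normalized by cyclic loess, probe sets of a gene were averaged, each array was left out, and the Ndufaf genes were left out.

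The genes and lists were chosen with earlier results of these data known. Named genes are, per comparison and complex, up to 5 called genes in each direction or otherwise the 2 with the smallest p, the tissue forms with their partners, complex II, and per list up to 4 called members or otherwise the 1 with the smallest p. Between the arms Ndufa1, Ndufa13, Ndufb2, Ndufb5, Ndufb7, Ndufs5, Atp5md, Ndufaf1 and Ndufaf6, and genes behind counts of 5 or fewer, were named after their values were seen.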

Additional observations from a re-analysis of the deposited data

How the results depend on the processing

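No alternative turned the direction of a called gene, and none called any of the 89 genes in a hormone response, in their difference or in their mean. Of 327 alternative values of counts and medians, 292 stayed within 1.5 times the count or within the replicate SD of 0.0938, and 35 moved. Of 156 alternative values for single genes, 124 kept their side of the threshold and 32, all of the averaged arm difference, lost it. Genes called higher in the plus-titled arm at 0 h, 0 here, numbered 4 with trend and robust variance and 1 with the replicate block, without the dimmest 25% of genes, with median centring, with cyclic loess and with the mean of probe sets, and 0 to 1 without 1 array. Genes called lower at 0 h, 1 here, numbered 3 with trend and robust variance, 1 to 2 without 1 array and 0 without the Ndufaf genes. At 4 h 1 gene was higher with the replicate block, and lower ones numbered 4 with trend and robust variance, 2 with the block, 2 without the dimmest 25% and 0 without the Ndufaf genes. For the averaged arm difference, 4 higher and 5 lower here, trend and robust variance gave 9 higher, the block 8 and leaving out the dimmest 25% 7, while fits without 1 array gave 0 to 6 higher and 2 to 6 lower. Without 1 array the median lay between -0.0303 and 0.136 for the hormone response of the plus-titled arm, between -0.0854 and 0.0869 for the arm difference at 0 h, between -0.0472 and 0.135 for the hormone response of the no-titled arm, between -0.0658 and 0.134 for the arm difference at 4 h and between -0.103 and 0.116 for the difference of responses. Replicate numbers did not pair the arrays over all genes, where deviations of same-numbered arrays correlated at -0.02 to 0.13, but over the 89 genes they correlated at 0.126 to 0.679 in all 6 pairs of groups. The genes added by the block were Ndufa3 at both times, Sdhb at 4 h, and Ndufa1, Ndufb2, Ndufb7, Atp5md and Uqcrq for the averaged difference. A term for the number within the block model called 0 of the 89 and 0 of all genes, with 75 of the 89 above 0 (84.3%, against 52.2% of all genes) and a median of 0.134 against 0.006. Over all genes, trend and robust variance called 249 higher and 121 lower in the plus-titled hormone response (here 164 and 56), 164 lower in the no-titled one (here 80), 406 lower in their mean (here 245) and 11 in their difference (4 higher and 7 lower, here 0 and 1). Between the arms it called 13% of all genes at 0 h, 13.1% at 4 h and 22% in the averaged difference. The block called 10.2%, 10.6% and 20.2%, and the fit without the dimmest 25% called 15.9%, 15.6% and 28.2%. Fewer genes were called without an array of the groups compared (at 0 h 413 higher and 176 lower without the untreated no-titled replicate 1, against 1236 and 634, at 4 h 359 and 295 without the treated no-titled replicate 1, against 1054 and 862, and in the plus-titled response 68 and 12 without its treated replicate 2). The cause of these shifts was not tested. Using only the arrays compared gave no value for the difference of responses or the averages. Signal limits Cox7b2, the 1 gene among the dimmest 25%. Low signal also bears on Cox4i2 (mean 5.49), Ndufa4l2 (5.20), Cox7a1 (5.12), Cox6b2 (4.87) and Cox8b (4.76), whose means lay below the lowest array median, 5.59.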
